A study of Mus musculus with 22 samples.

Results

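The libraries described here are the hemagglutinin immunoprecipitates (HA IP) and the flow-through fractions of injured spinal cord from 3 STAT3-CKO mice, animals 186, 531 and 270. They were chosen by their labels for genotype (STAT3 KO), condition (spinal cord injury) and RNA type, and make up 6 of the 22 libraries of the series, which came from 11 animals. HA IP and flow-through were paired by the animal number. All mice were young adult females that carried mGFAP-Cre, a Cre recombinase under a mouse Gfap promoter, and the RiboTag allele. STAT3-CKO mice carried a STAT3-LoxP allele as well. Both injured groups, STAT3-CKO SCI (n = 3) and wild-type (WT) SCI (n = 4), had a severe crush at thoracic level 10, and the middle 3 mm of the lesion was taken 14 days later. The remaining group was uninjured WT (n = 4), which had the same Cre and RiboTag alleles. No uninjured STAT3-CKO group was analysed here.

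RiboTag puts an HA tag on a protein of the large ribosomal subunit in every cell in which Cre has acted and in its progeny, so an antibody to HA pulls down ribosomes of those cells together with the mRNA they translate. The flow-through holds the RNA that did not bind, from all cells of the tissue. Astrocytes are glia that take up glutamate and potassium from around synapses, hold water channels at blood vessels and form the border of a spinal cord lesion. STAT3 is a transcription factor that is activated by cytokines of the interleukin-6 family and is required for a dense astrocyte border after injury. A gene's HA IP enrichment is its HA IP level over its flow-through level in the same animal. In bulk libraries such as these, fewer cells of a type and less RNA per cell cannot be told apart.

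The promoter windows of 3 genes are shown because Gfap marks astrocytes and its promoter drives the Cre, and because C3 and Serpina3n were the named immune and acute-phase genes whose HA IP enrichment was lower in STAT3-CKO than in WT injured cord. The windows are from RefSeq on GRCm38.p6 and run 5′ to 3′ on the gene's strand, with 250 bases before and 50 bases after the annotated start. The start listed for Gfap is that of 1 of its protein-coding transcripts. Capitals mark matches to TTCNNNGAA, a motif bound by STAT proteins that reads the same on both strands.
Gfap, chr11:102897151-102897450, minus strand: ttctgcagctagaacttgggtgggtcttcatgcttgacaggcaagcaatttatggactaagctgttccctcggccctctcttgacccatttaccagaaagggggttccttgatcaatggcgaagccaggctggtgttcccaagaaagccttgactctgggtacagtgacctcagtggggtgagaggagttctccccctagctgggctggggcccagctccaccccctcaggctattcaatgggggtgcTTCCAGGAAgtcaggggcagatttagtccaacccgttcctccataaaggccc
C3, chr17:57228087-57228386, minus strand: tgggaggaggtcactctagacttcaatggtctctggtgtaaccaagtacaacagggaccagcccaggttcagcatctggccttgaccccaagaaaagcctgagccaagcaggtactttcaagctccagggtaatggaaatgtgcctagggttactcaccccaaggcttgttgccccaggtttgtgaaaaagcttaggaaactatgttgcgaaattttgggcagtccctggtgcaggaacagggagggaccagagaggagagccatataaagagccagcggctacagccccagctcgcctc
Serpina3n, chr12:104406458-104406757, plus strand: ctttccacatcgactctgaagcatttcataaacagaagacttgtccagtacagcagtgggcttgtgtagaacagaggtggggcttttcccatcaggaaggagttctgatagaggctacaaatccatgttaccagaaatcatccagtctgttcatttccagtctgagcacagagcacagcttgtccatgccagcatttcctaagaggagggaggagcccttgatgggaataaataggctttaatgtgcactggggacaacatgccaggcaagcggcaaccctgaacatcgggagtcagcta

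The Gfap window held 1 match, TTCCAGGAA, at bases 249 to 257, across the annotated start. The C3 and Serpina3n windows held 0 matches, which says only that these letters are not in these 300 bases. The motif stood in 8.30% of all 32851 promoter windows. Taking the first listed window of each gene, it stood in 6.02% of 1263 genes higher in HA IP, in 6.36% of 1037 genes lower in HA IP and in 6.68% of 9608 genes tested. Of the 14 genes of the STAT3 cytokine response list with a window, 5 held it, namely Socs3, Fgl2, Icam1, Bcl6 and Cish. It stood in 4 of 16 windows of the homeostatic astrocyte list and in 2 of 13 of the pan-reactive list, so the STAT3 list was not the only one above the share of all genes. A match is a description of the sequence and not evidence of binding.

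HA IP libraries held 31292491 to 37970557 counts and flow-through libraries 4396861 to 8399656. Most counts fell on Rn45s, the ribosomal RNA precursor. Its share was 89.2%, 80.0% and 52.2% in HA IP of animals 186, 531 and 270, against 88.4%, 82.1% and 49.95% in their flow-through, so it differed between animals and little between the fractions of 1 animal. Counts outside 3 genes of ribosomal reads (Rn45s, Lars2 and Mir6236) numbered 2496641, 6375510 and 17348247 in HA IP, against 460759, 662593 and 4022328 in flow-through. A gene with 3 counts stood at 0.0303 to 0.239 CPM (counts divided by the scaled library size) in HA IP and at 0.128 to 1.19 CPM in flow-through, so low values in flow-through of animals 186 and 531 rest on few reads.

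HA IP and flow-through of injured STAT3-CKO cord differed over a broad set of genes, with astrocyte genes higher in HA IP and neuronal and microglial genes lower. Of 12659 genes tested, 3105 (24.5%) were called at an adjusted p under 0.05 by edgeR's quasi-likelihood test with the animal as a block, 1695 (13.4%) higher and 1410 (11.1%) lower in HA IP. Every HA IP library lay above every flow-through library for 1952 genes (15.4%) and below for 1743 (13.8%). The median log2 fold change over all genes tested was 0.02. Among called genes, 524 had a log2 fold change above 2 and 129 above 3, whereas 264 lay below -2 and 0 below -3. The 3 animals gave the same sign for 3008 of the 3105 called genes. Without the animal as a block, 1496 genes were called, 901 higher and 595 lower. Without animal 270, 1964 genes were called. The authors' deposited table of the same comparison has 2074 genes higher and 1696 lower at a false discovery rate under 0.05, and 2985 of these 3770 were also called here.

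**Figure D1:**
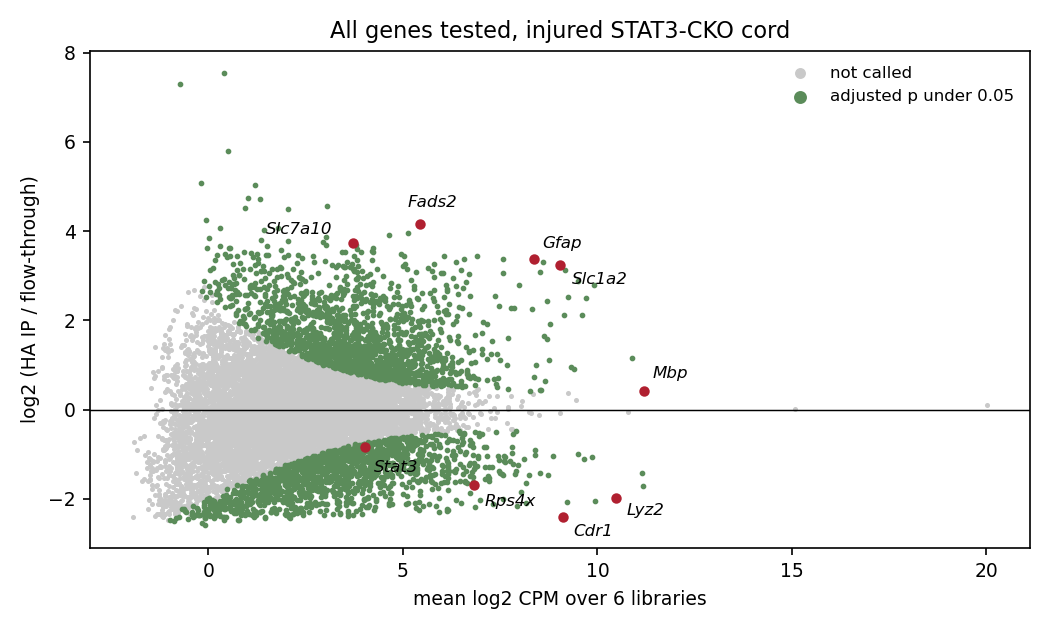
Each point is 1 of 12659 genes, with its mean log2 CPM over 6 libraries on the x axis and its log2 fold change of HA IP over flow-through on the y axis; green points were called at an adjusted p under 0.05 and red points are named. Called genes reach above 3 on the enriched side and stay above -3 on the depleted side.

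The 4 genes that define astrocytes here were all higher in HA IP, with no overlap between the fractions. Gfap, the intermediate filament protein of astrocytes (chr11:102887336-102900912, minus strand), had 611, 769.9 and 416 CPM in HA IP of animals 186, 531 and 270, against 77.6, 59.9 and 37.5 CPM in their flow-through. Its fold change was 10.4 (log2 3.38 ± 0.19 (SE), adjusted p = 4.06e-70). Slc1a2, the main glutamate transporter of astrocytes (chr2:102658659-102790784), had 1058, 888 and 889 CPM in HA IP, against 116, 111 and 78.6 CPM in flow-through (log2 3.23 ± 0.17). Both genes were about an order of magnitude apart between fractions in every animal. Gja1, the gap junction protein connexin 43 (chr10:56377330-56402513), had 105, 76.9 and 97 CPM in HA IP, against 23.8, 19.1 and 7.01 CPM in flow-through (log2 2.68 ± 0.23). Slc7a10, a neutral amino acid transporter (chr7:35186385-35201114), had 28.3, 26.4 and 15.4 CPM in HA IP, against 1.58, 1.09 and 1.71 CPM in flow-through (log2 3.74 ± 0.39). In flow-through of animals 186 and 531 it stood only a little above the level of 3 counts. Animal 270 had the lowest flow-through level of Gfap, Slc1a2 and Gja1.

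Stat3, the targeted gene (chr11:100885098-100939540, minus strand), had 8.94, 11.6 and 14.4 CPM in HA IP, against 13.5, 23.2 and 26.2 CPM in flow-through. The fractions overlapped, since HA IP of animal 270 lay above flow-through of animal 186, but HA IP was below flow-through within each animal (log2 -0.83 ± 0.30, adjusted p = 0.0235). This call was lost without animal 531 (adjusted p = 0.209), without animal 270 (adjusted p = 0.213) and without the block (adjusted p = 0.133). It was also lost in a fit of all 22 libraries (adjusted p = 0.102) and without the filter on low counts (adjusted p = 0.0529). After thinning to equal depth the log2 fold change was -0.44 (adjusted p = 0.339). In the fit of all 22 libraries, the enrichment of Stat3 was not called as different from that in WT injured or in uninjured cord. The deposited counts are per gene, so reads from the floxed part cannot be told apart from reads of the rest of the gene.

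**Figure D2:**
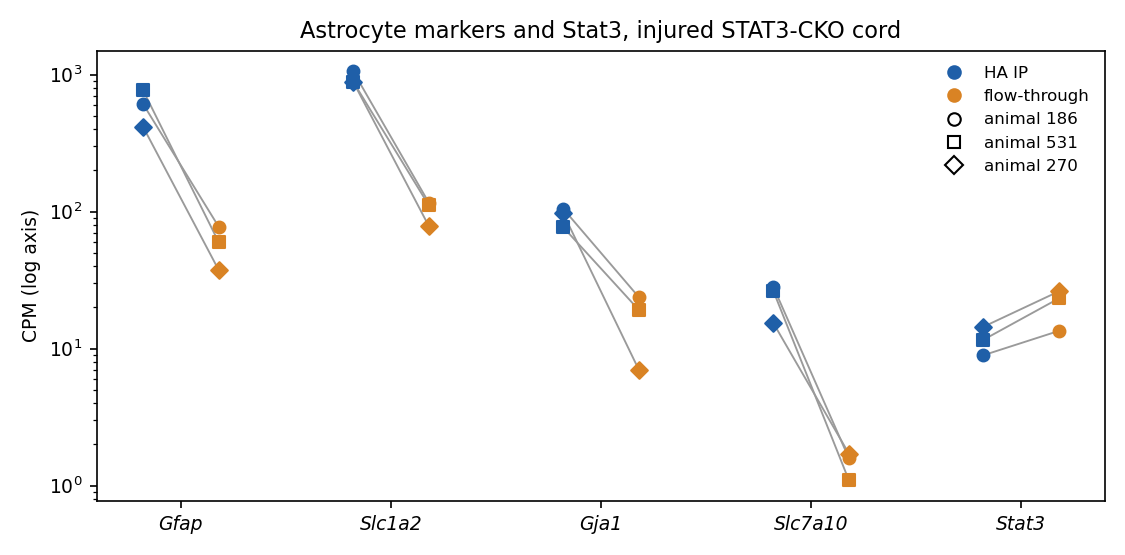
CPM on a log axis of 4 astrocyte markers and Stat3 in HA IP (blue, left) and flow-through (orange, right), with a line joining the libraries of 1 animal. HA IP lies above flow-through for the 4 markers in each of 3 animals and below it for Stat3.

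The 10 named genes of largest enrichment were enzymes, transporters, matrix and cell surface proteins. Fads2, a desaturase of polyunsaturated fatty acid synthesis, had 73.2, 89.1 and 76.8 CPM in HA IP, against 4.75, 5.74 and 3.59 CPM in flow-through, a fold change of 17.9 (log2 4.16 ± 0.27, adjusted p = 8.61e-51). Plxnb1, a semaphorin receptor, followed with 70.1, 74.8 and 48.5 CPM in HA IP and 3.17, 3.56 and 4.41 CPM in flow-through (log2 3.96 ± 0.28). The other 8 had log2 fold changes between 3.44 and 3.91. They were Pcdhgc3, a protocadherin whose exons are shared with its cluster, Slc38a3, a glutamine transporter, Mfsd2a, a transporter of lipids that carry docosahexaenoic acid, Papss2, which makes the sulfate donor for proteoglycans, Slc39a12, a zinc transporter, Bcan, the proteoglycan brevican, Agt, angiotensinogen, and Lrig1, a brake on growth factor receptors. Reads from shared exons of the protocadherin cluster cannot be assigned to 1 gene.

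Of the 10 named genes of largest depletion, most are known from neurons. Cdr1 had 269, 123 and 130.5 CPM in HA IP, against 1247, 1031 and 515 CPM in flow-through, a fold change of 0.187 (log2 -2.42 ± 0.17, adjusted p = 6.27e-44). Its locus also gives an abundant antisense circular RNA, and with no strand setting given the sources cannot be told apart. Vamp1 and Cplx1, proteins of synaptic vesicle release, had log2 fold changes of -2.26 ± 0.21 and -2.17 ± 0.19. Igf2, an insulin-like growth factor of meninges and vessels, had 13.4, 24.1 and 34.8 CPM in HA IP and 51.5, 180.5 and 129.8 CPM in flow-through (log2 -2.26 ± 0.21). The other 6 were Stmn2, Nrsn2, Vsnl1, Rasgrf1, Hapln4 and the noncoding RNA Rian, between -2.26 and -2.18.

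All 20 tested members of the homeostatic astrocyte list were called higher, with a median log2 fold change of 2.83, beside 13.4% of all genes tested. Counts for each list below stand beside the same background, 13.4% called higher and 11.1% called lower. Members of this list were chosen as astrocyte genes, and their summed level was 7006, 7176 and 5834 CPM in HA IP, against 1709, 1433 and 821 CPM in flow-through. Aldh1l1, a folate enzyme that marks astrocytes, had 32.6, 38.4 and 19.8 CPM in HA IP and 6.73, 6.29 and 2.01 CPM in flow-through. Glul, glutamine synthetase, had the smallest enrichment of the list, with 653, 419 and 372 CPM in HA IP and 462, 277 and 213 CPM in flow-through. Its fractions overlapped, though each animal was higher in HA IP (log2 0.64 ± 0.16), and the call was lost without the block (adjusted p = 0.304).

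Among genes for water, potassium and gap junctions, 12 of 15 tested were called higher and 0 lower, with a median of 2.25. Slc4a4, a sodium bicarbonate cotransporter, had 313, 352 and 374 CPM in HA IP, against 26.5, 47.3 and 29.9 CPM in flow-through (log2 3.37 ± 0.20). Mlc1, a membrane protein of astrocyte endfeet, had a log2 fold change of 2.98 ± 0.23. Aqp4, the water channel of endfeet, had 354, 472 and 752 CPM in HA IP and 122, 125 and 77.2 CPM in flow-through (log2 2.25 ± 0.18).

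Of the genes for uptake of glutamate, GABA and other amino acids, 11 of 16 tested were called higher and 1 lower, with a median of 1.61, and 2 did not pass the filter on low counts. Beside Slc1a2 and Slc7a10 they included Slc38a3, with 19.7, 51.3 and 26.9 CPM in HA IP and 1.19, 4.92 and 2.1 CPM in flow-through. In flow-through of animal 186 Slc38a3 stood at the level of 3 counts. Slc38a2, another amino acid transporter, was the member called lower (log2 -0.78 ± 0.25, adjusted p = 0.00987). That call was lost without animal 186 (adjusted p = 0.2), without animal 531 (adjusted p = 0.146) and without the block (adjusted p = 0.267).

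Genes of fuel use were among those higher in HA IP, with lower medians. For fatty acid oxidation and ketone use, 11 of 15 tested genes were called higher and 0 lower, with a median of 1.41. Acaa2, a thiolase of mitochondrial beta-oxidation, had 12.2, 15.5 and 9.94 CPM in HA IP, against 0.792, 2.19 and 3.68 CPM in flow-through (log2 2.33 ± 0.43). In flow-through of animal 186 Acaa2 stood below the level of 3 counts. Bdh1, which interconverts ketone bodies, had a log2 fold change of 2.24 ± 0.38, and Hadhb, a subunit of the trifunctional enzyme, 2.03 ± 0.26. For glycolysis and lactate, 9 of 19 were called higher and 0 lower, with a median of 0.56. The highest of these was Aldoc, the aldolase of astrocytes and other brain cells, with 1504, 1486 and 773 CPM in HA IP, against 274, 204 and 78 CPM in flow-through (log2 2.88 ± 0.17). Pfkm, a phosphofructokinase, had a log2 fold change of 2.03 ± 0.21. Of 20 genes of the mitochondrial respiratory chain, 10 were called higher and 0 lower, with a median of 0.58, led by Uqcrfs1 at 1.34 ± 0.23.

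Of 20 genes of cholesterol synthesis and export, 6 were called higher and 1 lower, beside 13.4% and 11.1% of all genes tested. Their median was 0.76. The lower one, Abcg1, lost its call under 4 settings (adjusted p = 0.051 to 0.2265). Hmgcs1, an early enzyme of the pathway, had 63, 44.8 and 34.2 CPM in HA IP, against 28.9, 21.1 and 12.9 CPM in flow-through (log2 1.22 ± 0.24). Apoe, the lipid carrier, had 1579, 2275 and 1381 CPM in HA IP and 1622, 1830 and 1904 CPM in flow-through. Its fractions overlapped and the difference did not pass the test (log2 -0.06 ± 0.14, adjusted p = 0.803). Of 17 glutathione and peroxide genes, 6 were called higher and 1 lower, beside the same 13.4% and 11.1%, with a median of 0.50. Prdx6, a peroxiredoxin, had 324, 328 and 223 CPM in HA IP, against 69.7, 71.7 and 38.3 CPM in flow-through (log2 2.32 ± 0.19), and Gstm1, a glutathione transferase with close paralogs, a log2 fold change of 2.65 ± 0.22.

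Chondroitin sulfate proteoglycans (CSPG) are matrix proteins that restrain axon growth, and 6 of 10 tested core and link proteins were called higher and 1 lower, with a median of 1.43. Bcan had 299.5, 222 and 127 CPM in HA IP, against 26.5, 24.1 and 10.3 CPM in flow-through (log2 3.45 ± 0.21). Ncan, neurocan, had 117, 229 and 165 CPM in HA IP, against 5.15, 31.2 and 17.6 CPM in flow-through (log2 3.37 ± 0.22), and Ptprz1, a receptor-type CSPG, a log2 fold change of 3.10 ± 0.24. Hapln4, a link protein of the nets around neurons, was the member called lower, with 10.6, 4.44 and 7.38 CPM in HA IP and 45.9, 25.2 and 28.6 CPM in flow-through. Of 13 tested enzymes of chondroitin sulfate synthesis, 4 were called higher and 1 lower, beside 13.4% and 11.1% of all genes tested. Their median was 0.08. The lower one, B3gat3, lost its call under 4 settings (adjusted p = 0.0644 to 0.218). Csgalnact1, which starts the chondroitin chain, was among the higher ones (log2 2.12 ± 0.41).

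Of 21 tested genes for cues that inhibit axon growth, 9 were called higher and 2 lower, with a median of 0.33. The lower ones, Slit2 and Rtn4, lost their call without the block (adjusted p = 0.125 and 0.563) and without animal 531 (adjusted p = 0.429 and 0.761). The higher ones include Ntn1, netrin 1, which attracts or repels axons, with 29.4, 12 and 8.32 CPM in HA IP and 3.17, 0.821 and 1.54 CPM in flow-through (log2 2.97 ± 0.41). In flow-through of animal 531 Ntn1 stood at the level of 3 counts. Of 26 tested genes for molecules that permit or support axon growth, 14 were called higher and 3 lower, with a median of 1.28, while 5 did not pass the filter. Sparcl1, the synapse-organising protein hevin, had 939.8, 1259 and 882 CPM in HA IP, against 132, 128 and 92.4 CPM in flow-through (log2 3.13 ± 0.17). Sdc4, a heparan sulfate proteoglycan, had a log2 fold change of 2.55 ± 0.20. Among those called lower were Igf1, the insulin-like growth factor of microglia and other cells, at -1.59 ± 0.22, and the neuronal adhesion molecule L1cam at -2.01 ± 0.30. Fn1 was called lower too, and lost its call under 5 settings (adjusted p = 0.0529 to 0.254).

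Receptors and effectors of the Hippo, Notch and Wnt pathways were called higher in 13 of 20 tested genes and lower in 1, with a median of 1.91. Fzd9, a Wnt receptor, had 7.58, 3.46 and 1.53 CPM in HA IP, against 0.792, 0 and 0.128 CPM in flow-through (log2 3.80 ± 0.78). Wnt7a, a Wnt ligand, had 14, 6.03 and 5.03 CPM in HA IP, against 0.396, 0 and 0.984 CPM in flow-through (log2 3.46 ± 0.57). In flow-through of animals 186 and 531 both stood below the level of 3 counts, and Fzd9 stood at it in animal 270, so the size of these folds is poorly fixed. Ctgf, a matricellular target of the Hippo pathway, was called lower (log2 -2.26 ± 0.64), though not without animal 186 (adjusted p = 0.102) or without the block (adjusted p = 0.12). Of 13 tested cell cycle genes, 1 was called, the topoisomerase Top2a (log2 1.63 ± 0.47), and not without the block (adjusted p = 0.0502).

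**Figure D3:**
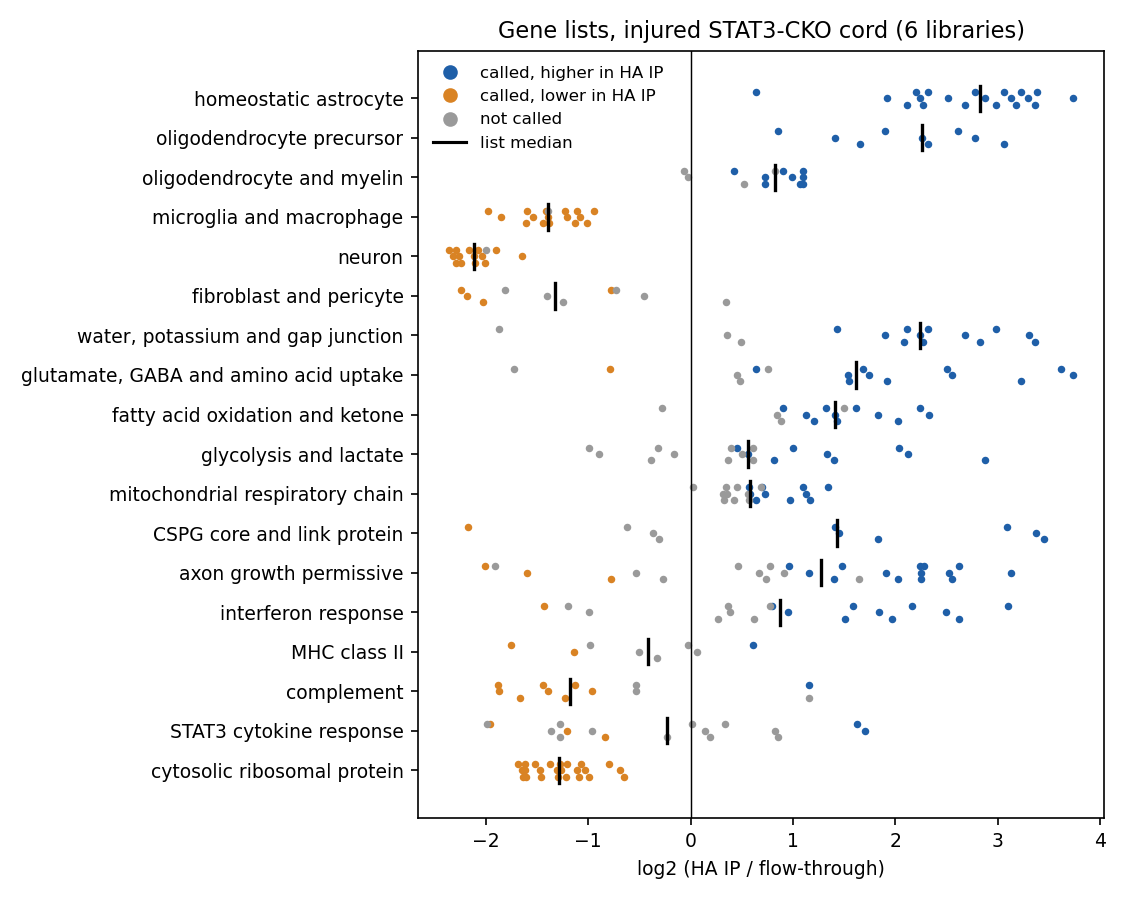
Log2 fold change of HA IP over flow-through on the x axis for the tested members of 18 gene lists, in injured STAT3-CKO cord; blue and orange points were called higher and lower at an adjusted p under 0.05, grey points were not called and bars are list medians. All homeostatic astrocyte genes lie to the right of 0, with a median of 2.83, while all tested neuron, microglia and ribosomal protein genes lie to the left.

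Genes of immune signalling were divided between the fractions. Of 18 tested interferon response genes, 10 were called higher in HA IP and 1 lower, with a median of 0.88. Gbp3, a guanylate-binding protein, had 28.7, 27.3 and 22.3 CPM in HA IP, against 3.17, 0.821 and 4.53 CPM in flow-through (log2 3.10 ± 0.35). In flow-through of animal 531 Gbp3 stood at the level of 3 counts. Igtp, an immunity-related GTPase, had 80.0, 74.6 and 109 CPM in HA IP, against 13.5, 10.1 and 19.8 CPM in flow-through (log2 2.62 ± 0.23), and its relative Iigp1 a log2 fold change of 2.50 ± 0.30. Cxcl10, a chemokine induced by interferon, had 16, 38.9 and 104 CPM in HA IP and 9.11, 17.2 and 23.4 CPM in flow-through. HA IP was higher within each animal, though HA IP of animal 186 lay below flow-through of animals 531 and 270, and the call (log2 1.47 ± 0.25) was lost without animal 270 (adjusted p = 0.0608).

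Complement genes were mostly lower in HA IP, with 8 of 12 tested called lower and 1 higher, and a median of -1.18. The higher one, Serping1, lost its call under 4 settings (adjusted p = 0.06155 to 0.347). C5ar1 and C3ar1, receptors for complement fragments on myeloid cells, had log2 fold changes of -1.88 ± 0.43 and -1.87 ± 0.26. C3, the central complement component (chr17:57203970-57228136, minus strand), had 3.75, 6.71 and 7.54 CPM in HA IP, against 7.92, 14.5 and 16.9 CPM in flow-through (log2 -1.12 ± 0.36, adjusted p = 0.00994). That call was lost without animal 531 (adjusted p = 0.0819), without animal 270 (adjusted p = 0.19) and without the block (adjusted p = 0.0885). Of 14 tested chemokine and cytokine genes, 5 were called lower and 2 higher, beside 11.1% and 13.4% of all genes tested. Tgfb1, a regulatory cytokine, had 4.31, 3.65 and 5.3 CPM in HA IP and 19.8, 15.1 and 15.1 CPM in flow-through (log2 -1.89 ± 0.35).

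Genes of antigen presentation showed no common direction. For MHC class II, 2 of 8 tested genes were called lower and 1 higher, beside 11.1% and 13.4% of all genes tested. The higher one, H2-Ab1, lost its call under 6 settings (adjusted p = 0.0882 to 0.467). Cd74, the invariant chain of MHC class II, had 82.3, 308 and 237 CPM in HA IP and 75.2, 230.3 and 305 CPM in flow-through, which did not pass the test (adjusted p = 0.853). Ctss, a protease of the same pathway, was lower at -1.14 ± 0.18, a call lost without the block (adjusted p = 0.086). For MHC class I, 3 of 12 (25%) were called higher and 0 lower, so the share called was near the 24.5% of all genes tested. Of these, Tap2, a peptide transporter, had 6.54, 6.92 and 4.54 CPM in HA IP and 1.19, 0.547 and 1.67 CPM in flow-through (log2 2.21 ± 0.56). In flow-through of animals 186 and 531 Tap2 stood at or below the level of 3 counts, so the size of its fold is poorly fixed. The other two lost their call without the block, H2-Q4 (adjusted p = 0.198) and B2m (adjusted p = 0.69). Without animal 270, H2-Q4 had an adjusted p of 0.0979 and B2m of 0.0618, and B2m was lost under 5 further settings (adjusted p = 0.052 to 0.472).

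Lists linked to astrocyte reactivity and to STAT3 had shares of called genes near the 24.5% of all genes tested. Of 10 tested pan-reactive genes, Gfap and Cxcl10 were called higher and 0 lower, with a median of 0.30, and Lcn2, Steap4 and Aspg did not pass the filter. Serpina3n, a secreted protease inhibitor of the acute phase, had 75.6, 27.2 and 31.4 CPM in HA IP and 59.8, 53.1 and 47.3 CPM in flow-through, which overlapped and did not pass the test (log2 -0.41 ± 0.21, adjusted p = 0.148). Without animal 186, the only one with more in HA IP, its log2 fold change was -0.73 and passed (adjusted p = 0.0343). Of 17 tested genes of the STAT3 cytokine response, 2 were called higher and 3 lower, with a median of -0.23. Il6st, the shared receptor subunit gp130, had 69.7, 69.2 and 54.3 CPM in HA IP, against 18.6, 17.2 and 22.4 CPM in flow-through (log2 1.70 ± 0.23). Ccnd1, cyclin D1, had 20.2, 38.8 and 31 CPM in HA IP and 7.13, 8.75 and 12.6 CPM in flow-through (log2 1.63 ± 0.29). The 3 called lower were Stat3 itself, Bcl3 (log2 -1.96 ± 0.73) and Fgl2 (log2 -1.21 ± 0.47). Bcl3 was not called without any 1 of the 3 animals (adjusted p = 0.0802 to 0.145) or without the block (adjusted p = 0.143), and Fgl2 not without animal 186 (adjusted p = 0.346), animal 270 (adjusted p = 0.385) or the block (adjusted p = 0.175).

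Markers of other cell types were lower in HA IP for neurons, microglia and lymphocytes, and higher for the oligodendrocyte lineage. Of 15 tested neuronal genes, 14 were called lower in HA IP and 0 higher, with a median of -2.11. Their summed level was 426, 198 and 473 CPM in HA IP, against 1518, 1209 and 1730 CPM in flow-through. Snap25, a synaptic membrane protein, had 97.7, 51 and 135 CPM in HA IP and 332, 362 and 502 CPM in flow-through (log2 -2.16 ± 0.18). Slc32a1 and Slc17a6, the vesicular transporters of inhibitory and excitatory neurons, had log2 fold changes of -2.36 ± 0.39 and -2.32 ± 0.34.

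Microglia and macrophage genes were lower too, 16 of 17 tested and 0 higher, with a median of -1.39. Their sums were 1201, 1745 and 1504 CPM in HA IP, against 4100, 5093 and 4551 CPM in flow-through, so HA IP still held RNA of these genes in every animal. Lyz2, the lysozyme of macrophages, had 541, 654 and 527 CPM in HA IP and 2222, 2837 and 1819 CPM in flow-through (log2 -1.98 ± 0.15). Cx3cr1, the fractalkine receptor of microglia, had 21.3, 26.6 and 20.9 CPM in HA IP and 43.5, 50.9 and 43.4 CPM in flow-through (log2 -1.01 ± 0.23). The complement genes C1qa, C1qb and C1qc stand in both this list and the complement list. The part of these cells in the lower complement genes was not tested.

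Other cell types gave fewer reads. Of 10 tested fibroblast and pericyte genes, 4 were called lower, among them the collagen Col1a1, with 2.87, 1.96 and 7.33 CPM in HA IP and 7.52, 13.9 and 25.5 CPM in flow-through (log2 -2.03 ± 0.37). All 3 tested lymphocyte genes were called lower, among them Nkg7 of cytotoxic cells (log2 -2.31 ± 0.64). The other two, Cd3e and Cd8a, lost their call without the block (adjusted p = 0.105 and 0.206) and without animal 531 (adjusted p = 0.0768 and 0.175), and Cd8a also without animal 186 (adjusted p = 0.0527), while Ms4a1, a marker of B cells, had 0 counts in all 6 libraries. For endothelium, 6 of 8 genes did not pass the filter, the other 2 were not called, and the list summed to at most 4.78 CPM in HA IP and 10.95 CPM in flow-through. Of 7 tested ependymal and cilia genes, 3 were called higher and 0 lower, and of 6 tested Schwann cell genes, 3 were called higher and 1 lower. Over all genes tested, 13.4% were called higher and 11.1% lower. Without the block, Ccdc153 and Rarres2 of the first list (adjusted p = 0.115 and 0.274) and all 4 of the second (adjusted p = 0.105 to 0.433) lost their call. The 1 tested neutrophil gene, Csf3r, had a log2 fold change of -1.09 ± 0.32, a call lost without animal 186 (adjusted p = 0.0575), without animal 270 (adjusted p = 0.262) and without the block (adjusted p = 0.236). Of 10 tested immediate early genes, Atf3, a stress transcription factor, was called lower (log2 -1.82 ± 0.37). Of 5 red blood cell genes, 4 had 0 counts in all 6 libraries. Hemoglobin genes have near-identical copies between which reads may not have been assigned, so these zeros do not show that their RNA was absent.

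All 9 tested genes of oligodendrocyte precursors were called higher, with a median of 2.27 and sums of 847, 773 and 549 CPM in HA IP, against 169, 206 and 110 CPM in flow-through. Gpr17, a receptor of committed precursors, had 166, 96.8 and 75.4 CPM in HA IP, against 12.3, 15.9 and 9.92 CPM in flow-through (log2 3.06 ± 0.23). Pdgfra, the growth factor receptor that defines precursors, had 45.6, 58.1 and 45.9 CPM in HA IP, against 7.13, 10.4 and 5.39 CPM in flow-through (log2 2.78 ± 0.27). The fractions did not overlap for either gene. Of 13 oligodendrocyte and myelin genes, 9 were called higher and 0 lower, with a median of 0.82. Myrf, the transcription factor of myelination, had 57.9, 113 and 71.9 CPM in HA IP and 36, 34.5 and 38.1 CPM in flow-through (log2 1.10 ± 0.21). Mbp, myelin basic protein, had 2443, 2866 and 2791 CPM in HA IP and 2248, 2227 and 1618 CPM in flow-through (log2 0.42 ± 0.14, adjusted p = 0.0127), a call lost without animal 270 (adjusted p = 0.401) and without the block (adjusted p = 0.494).

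The 24 tested genes for cytosolic ribosomal proteins were called lower in HA IP without exception, with a median log2 fold change of -1.29 and a range of -1.69 to -0.65. Their summed level was 1251, 1255 and 1191 CPM in HA IP, against 2829, 3423 and 2880 CPM in flow-through. Rps4x, a protein of the small subunit, had 54.3, 48.9 and 58.4 CPM in HA IP, against 154, 197 and 171 CPM in flow-through (log2 -1.69 ± 0.19). The fractions did not overlap for 23 of the 24, beside 13.8% of all genes tested that lay wholly lower in HA IP. Many of these genes have processed pseudogenes whose reads may be shared.

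The same enrichment was then set against that of WT injured cord, in a fit of all 22 libraries with animal as a block. Of 15142 genes tested, 31 (0.205%) had an enrichment that differed between STAT3-CKO and WT injured cord, 9 (0.0594%) higher and 22 (0.145%) lower in STAT3-CKO. With relative log expression scaling, the split was 10 higher and 11 lower. At an unadjusted p under 0.05 there were 1730 genes. Differences are given as log2 fold changes of HA IP over flow-through in STAT3-CKO minus those in WT injured cord. As a group, the WT injured flow-through libraries are the shallowest of the series, with 91626 to 615302 counts outside the 3 genes of ribosomal reads. STAT3-CKO flow-through of animal 186 held 460759 such counts, within this range, and that of animal 531 held 662593.

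C3 had the largest difference among the named genes, -3.06 ± 0.38 (SE, adjusted p = 0.00106). Its log2 ratios of HA IP to flow-through were -0.98, -1.05 and -1.10 in the 3 STAT3-CKO animals and 1.32, 2.52, 1.28 and 2.61 in the 4 WT injured animals, which do not overlap. The ratios of the WT injured animals rest on 81, 707, 242 and 426 C3 counts in HA IP and on 7, 23, 30 and 18 in flow-through. C3 averaged 5.75 ± 1.86 CPM (SD) in HA IP of STAT3-CKO and 48.9 ± 27.1 CPM in HA IP of WT injured cord, while flow-through averaged 12 ± 4.24 CPM in STAT3-CKO and 12.8 ± 5.9 CPM in WT. Serpina3n had ratios of 0.43, -0.91 and -0.52 in STAT3-CKO and 1.42, 1.92, 1.25 and 1.75 in WT injured animals, a difference of -1.94 ± 0.29 (adjusted p = 0.00835). Its HA IP level averaged 43.1 ± 26.1 CPM in STAT3-CKO and 811 ± 268 CPM in WT injured cord, and its flow-through level 48.9 ± 5.92 CPM in STAT3-CKO and 262 ± 48.6 CPM in WT. Both means were lower in STAT3-CKO, and levels between groups were not tested. Apod, a lipid-binding protein of glia, had a difference of -1.48 ± 0.27, and Mt1, a metallothionein that binds zinc, -1.18 ± 0.22.

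Serinc5, a membrane protein of myelinating and other cells, had the largest difference in the other direction, 2.38 ± 0.29 (adjusted p = 0.00106). Its log2 ratios were 2.37, 1.99 and 1.92 in STAT3-CKO and 0.08, -0.80, -0.24 and -0.20 in WT injured animals. Slc1a2 was more enriched in STAT3-CKO, with ratios of 3.27, 3.05 and 3.56 in STAT3-CKO and 2.39, 2.34, 2.11 and 1.89 in WT injured animals, a difference of 1.12 ± 0.21 (adjusted p = 0.0448). Cd74 had ratios of 0.22, 0.47 and -0.29 in STAT3-CKO and -1.62, -1.27, -1.73 and -1.92 in WT injured animals, a difference of 1.76 ± 0.28. Its level was 201 ± 111 CPM in HA IP and 186 ± 106 CPM in flow-through of STAT3-CKO, against 13.5 ± 10.6 and 38.9 ± 23.5 CPM in HA IP and flow-through of WT injured cord. Irgm2, another interferon-induced GTPase, had a difference of 2.28 ± 0.43. Gfap had a difference of 0.38 ± 0.22, which did not pass the test (adjusted p = 0.555). The 34 gene lists hold 482 different genes. Their members called in this comparison were Slc1a2 and Cd74, both higher, and Serpina3n and C3, both lower, beside 0.205% of all genes tested.

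Of the 15 genes named for this comparison, C3 and Serinc5 were called in each fit that left out 1 animal. Without STAT3-CKO animal 186, 531 or 270, the call was lost for 12, 13 and 11 of the 15, with adjusted p between 0.0586 and 0.188. Without WT animal 9596, 9843, 9874 or 9935 it was lost for 5, 4, 5 and 1 of the 15, with adjusted p between 0.0518 and 0.0828. Without the block, 4 genes were called, and 13 of the 15 lost the call (adjusted p = 0.451 to 0.826). After thinning to equal depth, 9 of the 15 lost it, Slc1a2, Emc7, Mt1, Gpr56, Cd74, Clip3, Irgm2, Septin4 and Abcd2 (adjusted p = 0.0626 to 0.634). Polr2l could not be tested after thinning.

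Against uninjured WT cord, 704 of 15142 genes (4.65%) differed in HA IP enrichment, 301 (1.99%) higher and 403 (2.66%) lower in STAT3-CKO. Without the block, 130 were called. The median difference over all genes was 0.11 with TMM scaling and -0.01 with relative log expression scaling, under which 213 were higher and 506 lower. Genotype and injury differ together in this comparison and cannot be told apart. Uninjured libraries held 2858044 to 51571785 counts outside the 3 genes of ribosomal reads, so injury moves with depth.

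Of 20 homeostatic astrocyte genes, 11 had a lower enrichment in STAT3-CKO than in uninjured cord and 0 a higher one. The median enrichment of the 20 was 2.90 in STAT3-CKO, 2.32 in WT injured and 4.19 in uninjured cord. Over all genes tested, 2.66% had a lower and 1.99% a higher enrichment. Gfap differed by -1.57 ± 0.22 (adjusted p = 3.55e-04), with 577 ± 177 CPM in HA IP and 53.5 ± 18.5 CPM in flow-through of STAT3-CKO, against 828 ± 189 and 25.2 ± 4.44 CPM in HA IP and flow-through of uninjured cord. Gja1 differed by -2.10 ± 0.37, and by -1.11 after thinning to equal depth, which did not pass (adjusted p = 0.27). Slc1a2 differed by -1.24 ± 0.21, a call lost without the block (adjusted p = 0.369). In contrast, 9 of 13 oligodendrocyte and myelin genes had a higher enrichment in STAT3-CKO, where the median was 0.89, against -0.77 in uninjured cord. Mbp differed by 1.68 ± 0.19 (adjusted p = 3.87e-05), with 2593 ± 209 CPM in HA IP and 1861 ± 348 CPM in flow-through of STAT3-CKO, against 876 ± 154 and 1983 ± 228 CPM in HA IP and flow-through of uninjured cord. In WT injured cord the median of the myelin list was 0.78. Between STAT3-CKO and WT injured cord 0 of the 13 differed, beside 0.205% of all genes tested.

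**Figure D4:**
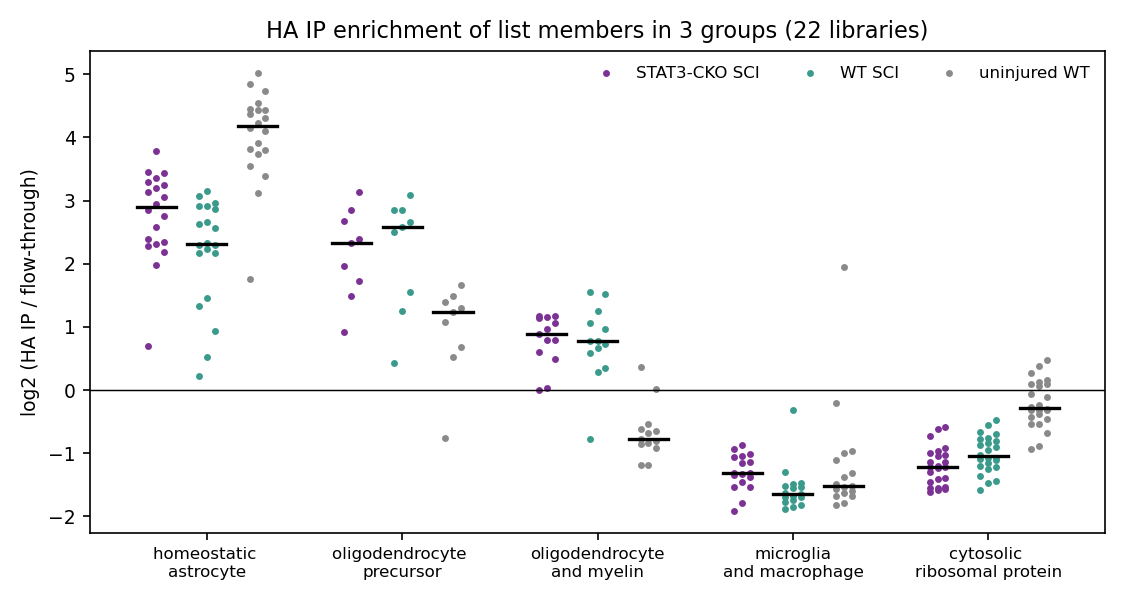
Log2 fold change of HA IP over flow-through on the y axis for members of 5 gene lists in STAT3-CKO SCI (purple), WT SCI (green) and uninjured WT (grey), from the fit of 22 libraries; points are genes and bars are medians. The median of astrocyte genes was highest in uninjured cord, at 4.19, and the median of myelin genes was below 0 there, at -0.77, and above 0 in both injured groups.

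Ribosomal protein genes differed as well, with a lower enrichment in STAT3-CKO for 15 of 24 and a higher one for 0. Over all genes tested, these shares were 2.66% and 1.99%. The median of the ribosomal protein genes was -1.22 in STAT3-CKO, -1.05 in WT injured and -0.29 in uninjured cord. Rps4x had 51.7 ± 4.01 CPM in HA IP and 159.5 ± 21.9 CPM in flow-through of STAT3-CKO, against 53.8 ± 9.3 and 53.1 ± 17.1 CPM in HA IP and flow-through of uninjured cord, a difference of -1.69 ± 0.24. The 2 HA IP means lay within 1 SD of each other, whereas the flow-through mean was higher in STAT3-CKO. The summed microglia and macrophage markers, which were higher in flow-through than in HA IP, are given above, and their part in this difference was not tested.

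The named genes with the largest loss of enrichment relative to uninjured cord include several known from lipid transport and phagocytes. Apoe had log2 ratios of 0.05, 0.37 and -0.40 in STAT3-CKO and 5.52, 4.69, 4.80 and 4.63 in uninjured animals, a difference of -4.91 ± 0.29 (adjusted p = 1.74e-08). It averaged 1679 ± 468 CPM in HA IP and 1634 ± 136 CPM in flow-through of STAT3-CKO, against 751 ± 109 and 26.1 ± 8.63 CPM in HA IP and flow-through of uninjured cord. Both means were higher in STAT3-CKO, that of flow-through by more. In WT injured animals the Apoe ratios were 0.11, 0.02, -0.89 and -0.85. Lpl, lipoprotein lipase, had a difference of -5.04 ± 0.46, with 28.6 ± 1.23 CPM in flow-through of STAT3-CKO and 0.132 ± 0.096 CPM in flow-through of uninjured cord. The latter rests on 7, 2, 5 and 3 counts, so the size of this difference is poorly fixed. Axl, a receptor for the clearance of dying cells, differed by -3.72 ± 0.35, Cd63, a lysosomal membrane protein, by -3.59 ± 0.29, and Lgals3, galectin 3 of phagocytes, by -4.90 ± 0.58. After thinning to equal depth, the difference of Lgals3 was -1.30 and did not pass (adjusted p = 1). In WT injured cord the log2 enrichment was -1.25 for Lpl, -0.47 for Axl, -0.11 for Cd63 and -1.15 for Lgals3. None of these genes was called as different between STAT3-CKO and WT injured cord. C3 had the largest difference from uninjured cord of the named genes, -5.35 ± 0.37 (adjusted p = 1.15e-07). Its ratios were -0.98, -1.05 and -1.10 in STAT3-CKO, 1.32, 2.52, 1.28 and 2.61 in WT injured and 4.48, 3.95, 4.58 and 4.09 in uninjured animals, so the ratio was above 0 in all 8 WT animals and below 0 in all 3 STAT3-CKO animals. Of the 13 pan-reactive genes tested in the fit of 22 libraries, 5 had a lower enrichment in STAT3-CKO than in uninjured cord, namely Gfap, Vim, Cd44, Osmr and Cp, and of 17 genes of the STAT3 response, Osmr, Bcl3 and Fgl2 did. Over all genes tested, 2.66% had a lower enrichment.

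Tnr, the matrix protein tenascin R, which oligodendrocyte lineage cells and some neurons make, gained enrichment relative to uninjured cord. It had ratios of 2.37, 2.66 and 2.32 in STAT3-CKO and -0.56, 0.10, -0.12 and -0.56 in uninjured animals, with 1.98, 2.19, 2.06 and 2.10 in WT injured animals. The difference from uninjured cord was 2.74 ± 0.33 (adjusted p = 6.43e-05). Its HA IP level averaged 32.3 ± 2.15 CPM in STAT3-CKO and 6.35 ± 0.578 CPM in uninjured cord, with 5.89 ± 0.608 and 7.81 ± 1.33 CPM in flow-through of STAT3-CKO and uninjured cord. Enpp6, a choline phosphodiesterase of newly forming oligodendrocytes, differed by 2.42 ± 0.40. Slc1a1, the glutamate transporter of neurons and some glia, differed by 2.35 ± 0.38, a call lost without the block (adjusted p = 0.0629). Of the 21 genes named for this comparison, Gng4 was not called without animal 270 (adjusted p = 0.0586) and Plxnb3 not without animal 531 (adjusted p = 0.0859), and the other 19 were called in every fit that left out 1 animal. Without the block, 5 of the 21 lost their call, Gng4, Olfm2, Plxnb3, Slc1a1 and Slc1a2 (adjusted p = 0.0607 to 0.369). After thinning to equal depth, 6 of the 21 lost it, Phyhd1 (adjusted p = 0.0688), Capn5 (0.103), Plxnb3 (0.158), Enpp6 (0.185), Gja1 and Lgals3. Gng4 could not be tested after thinning. The comparisons with WT injured and with uninjured cord share the STAT3-CKO libraries, so they are not independent.

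**Figure D5:**
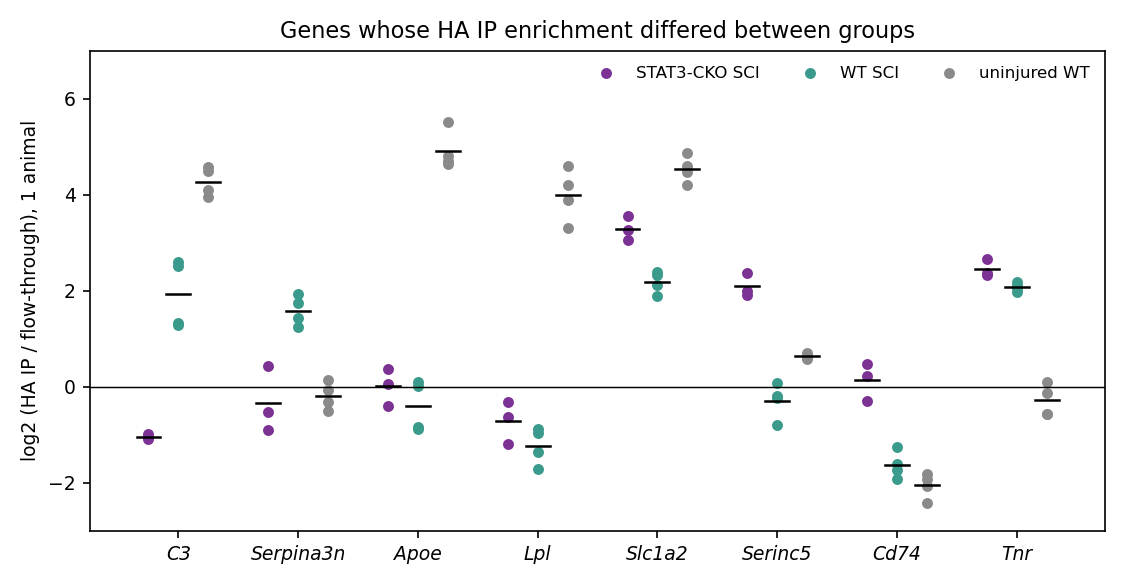
Log2 ratio of HA IP to flow-through in each animal on the y axis for 8 genes, in STAT3-CKO SCI (purple, 3 animals), WT SCI (green, 4 animals) and uninjured WT (grey, 4 animals), with bars for means. C3 lies below 0 in the 3 STAT3-CKO animals and above 1 in the other 8, whereas Cd74 and Serinc5 lie higher in STAT3-CKO than in both WT groups.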

How the data were processed

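Per the labels' protocols, 5 ng of HA IP or flow-through RNA was amplified to cDNA (NuGEN Ovation V2), made into libraries with 10 PCR cycles and sequenced as read pairs. CASAVA 1.8.2, edgeR and mm10 are named in the submitters' processing notes. The aligner, counter, annotation and strand setting were not given in the sources used here. Reads of overlapping genes and close paralogs therefore cannot be told apart.

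The authors deposited raw read counts per gene (24060 rows), which were whole numbers. Per the file headers, the authors' own comparison stands beside them as a log2 fold change, a p-value and a false discovery rate for each gene. From it, the direction and the number of genes at a false discovery rate under 0.05 were taken. There were 146 further columns with values of single samples, which were left out. The fits were made with edgeR 4.0.16 in R 4.3.3 (quasi-likelihood test, two-sided, filterByExpr, TMM scaling, Benjamini-Hochberg adjustment over all genes tested): 1 of the 6 STAT3-CKO libraries, with 2 residual degrees of freedom and a prior estimated as infinite, so that the spread of a gene was taken from a trend over genes of like level, and 1 of 22 libraries with each animal as a block. SE is the log2 fold change divided by the root of F. CPM are counts over TMM-scaled library sizes within each fit, so levels of the 6-library and the 22-library fit stand on slightly different scales. They are relative levels, since each library started from the same amount of RNA. Counting intervals and floors cover counting error only.

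Animal numbers pair the libraries: deviations of HA IP from its group mean correlated with those of the same animal's flow-through at 0.42, 0.25 and 0.44 (12659 genes, animals 186, 531 and 270). The labels do not say how animals were bred or handled, so p-values bear on these animals only. In the 6-library fit the spread came from the trend over genes. Its p-values and SE therefore do not measure a gene's own spread between animals. Replicate libraries differed by more than counting noise (lowest chi-square per degree of freedom 5.85). The members and the 34 gene lists (510 entries, 508 found) were chosen with earlier results of these data known, and some lists share genes. Genes were named by size among called genes without overlap (10 each way for enrichment at a mean log2 CPM of at least 4, 8 each way for differences at a mean of at least 3), together with Stat3, 4 markers and up to 3 called members each way of each list, or the member of smallest p where none was called. Predicted, unnamed and small RNA genes were left out of the choice by size. Aldh1l1, Glul, Aqp4, Mbp, Snap25, Cx3cr1, Apoe, Cd74, Serpina3n and C3, list members given only by name, and the differences of Gfap, Gja1, Slc1a2, Mbp and Rps4x from uninjured cord, were named after their values were seen. Alternatives were no block, relative log expression scaling, no filter, DESeq2 1.42.0, 3 ribosomal-read genes left out, thinning to equal depth, all 22 libraries and leaving out each animal.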

Additional observations from a re-analysis of the deposited data

Results flagged for a closer look

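The genes in this part had an HA IP enrichment in injured STAT3-CKO cord that differed from that in another group, by edgeR's test of the difference itself (adjusted p under 0.05). They were singled out among many genes by their size, and no cause was tested.

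Relative to WT injured cord, the log2 enrichment in STAT3-CKO was higher for Serinc5 by 2.38, for Irgm2 by 2.28, for the peroxisomal fatty acid transporter Abcd2 by 2.00, for Emc7, a part of the membrane protein insertion complex, by 1.85, for Cd74 by 1.76, for the adhesion receptor Gpr56 by 1.71 and for Slc1a2 by 1.12. It was lower for C3 (-3.06), the RNA polymerase subunit Polr2l (-2.61), the calcium sensor Ncs1 (-2.08), Serpina3n (-1.94), Apod (-1.48), the microtubule-binding protein Clip3 (-1.33), Septin4 (-1.31) and Mt1 (-1.18). Abcd2 had log2 ratios of 0.04, 0.99 and 0.87 in STAT3-CKO and -1.03, -1.85, -0.92 and -1.38 in WT injured animals, and 1.23, 1.48, 1.89 and 1.16 in uninjured animals. Polr2l had ratios of -0.16, -0.01 and -0.24 in STAT3-CKO, 2.53, 3.78, 1.38 and 2.58 in WT injured and -0.09, 0.43, 0.31 and 0.45 in uninjured animals, so WT injured cord stood apart from the other groups there. These WT injured ratios rest on 2, 3, 11 and 17 Polr2l counts in flow-through, so their size is poorly fixed.

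Relative to uninjured WT cord, the log2 enrichment in STAT3-CKO was higher for the calpain Capn5 by 2.81, for Tnr by 2.74, for the semaphorin receptor Plxnb3 by 2.46, for the chemokine Cx3cl1 by 2.44, for the G protein subunit Gng4 by 2.42, for Enpp6 by 2.42, for Olfm2 by 2.38, for Slc1a1 by 2.35 and for Mbp by 1.68. It was lower for C3 (-5.35), Lpl (-5.04), Apoe (-4.91), Lgals3 (-4.90), Phyhd1 (-3.73), Axl (-3.72), the apolipoprotein Apoc1 (-3.72), Cd63 (-3.59), Gja1 (-2.10), Rps4x (-1.69), Gfap (-1.57) and Slc1a2 (-1.24). Cx3cl1 had ratios of 1.37, 0.49 and 0.84 in STAT3-CKO and -1.60, -1.61, -1.59 and -1.41 in uninjured animals. In WT injured animals its ratios were 8.22, 1.93, 1.06 and -0.57, resting on 0, 3, 19 and 44 counts in flow-through. Lgals3 had 0.486 ± 0.184 CPM in HA IP and 0.0306 ± 0.0387 CPM in flow-through of uninjured cord, a level of few reads, so the size of its difference is poorly fixed. Lpl in uninjured flow-through rests on 7, 2, 5 and 3 counts, so the same holds for it. Of the genes in this paragraph, C3 and Slc1a2 alone were also called as different between STAT3-CKO and WT injured cord.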

How the results depend on the processing

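Enrichment in STAT3-CKO was called for 3105 genes. It was called for 1496 without the replicate block, of which all 1496 were also called with it, for 2150 to 3149 under the other settings, and for 1964 to 2432 with 1 animal left out, the lowest without animal 270, whose libraries are the deepest. Thinning to 460759 counts a library left 7722 genes testable.

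The difference from WT injured cord was called for 31 genes, and without the replicate block for 4, with DESeq2 for 317, with the ribosomal-read genes left out for 51 and after thinning to 91626 counts for 7. With 1 animal left out it was called for 4 to 79. The difference from uninjured cord was called for 704, and without the replicate block for 130, with DESeq2 for 1340 and after thinning for 217. With 1 animal left out it was called for 358 to 495. Thinning left 3986 genes testable; the cause of the other shifts was not tested.

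No named gene that was called changed direction under any of these settings. In all, 55 named results lost their call without the replicate block, 23 after thinning, 16 in the 22-library fit (which bears on enrichment alone), 9 without the filter, 7 with DESeq2, 4 with the other scaling, 0 without the ribosomal-read genes and 30 to 40 without 1 STAT3-CKO animal. Results that could not be tested under a setting, such as Polr2l and Gng4 after thinning, are not counted as lost. Depth limits the WT injured flow-through libraries most.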

Other observations

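Depletion from HA IP had a narrow lower edge in injured STAT3-CKO cord. Over 12659 genes tested, the log2 fold change of HA IP over flow-through ran from -2.59 to 7.53, and 264 genes were called below -2 with 0 below -3. The 15 tested neuronal genes lay between -2.36 and -1.65, although their levels differed widely, and the 10 named genes of largest depletion lay between -2.42 and -2.18. Genes of microglia and macrophages lay between -1.98 and -0.94. In the fit of 22 libraries, the neuronal genes lay between -2.48 and -2.11 in uninjured cord, so their narrow range was not particular to STAT3-CKO. In WT injured cord they lay between -1.97 and 0.01. No cause was tested.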
